A study of Chlamydomonas reinhardtii with 12 samples.

Results

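The 47 genes described here carry the symbols of the enzymes that remove superoxide and peroxides and that keep thiols reduced in the green alga Chlamydomonas reinhardtii. They were chosen by symbol, as the loci whose symbol in the deposited table begins with PRX, GPX, GST, APX, CAT, MSD, FSD, TRX, GRX, NTR, GSH or GSR, out of 17741 loci, and MSD3 was left out. For each locus the transcript with the highest mean level was used. They comprise 7 peroxiredoxins, 4 glutathione peroxidases, 3 loci with an ascorbate peroxidase symbol, 2 catalases, 4 superoxide dismutases, 4 thioredoxins, 4 thioredoxin reductases, 6 glutaredoxins, 4 genes of glutathione synthesis and reduction, and 9 loci with a glutathione S-transferase symbol. Of these, 45 passed the filter of at least 1 FPKM (fragment counts per transcript length and per mapped total) in at least 1 group, as did 10915 of all loci. The other 2 were the superoxide dismutase MSD4, at 0.0522 FPKM or less in every group, and GST13, at 0.904 FPKM or less.

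The study measured stranded poly(A) RNA in CC-124, the wild type, and in the transformant amiCYG12, in which an artificial microRNA lowers the soluble guanylate cyclase gene CYG12. Both strains were grown in aerated acetate medium at 20 °C in continuous light, 20 µmol photons per square metre each second (standard, 0 h). They were then kept for 6 h in darkness, with air in open beakers (dark aerated) or without it in sealed flasks (anoxia). The 12 libraries fall into 6 groups with 2 biological replicates in each. CYG12 itself had 0.132, 3.23 and 2.46 FPKM in wild-type cells and 0.158, 0.353 and 0.429 FPKM in amiCYG12, so the strain labels could be checked in both dark groups and not in the standard group, where it was near 0 in both strains. Where 3 FPKM values follow each other, they are those of the standard, the dark aerated and the anoxic cells.

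The deposited table holds 1 pooled FPKM value per group, so no error between replicates can be printed and the read depth is unknown. "Rose", "fell", "higher" and "lower" stand for the yes calls of the authors' deposited table (Cuffdiff, q threshold 0.05). Log2 values in the text compare pooled FPKM values to each of which 1 was added, which understates the change of low genes. FPKM is a share of each group's RNA, so less of 1 transcript and more of all others cannot be told apart. Light, oxygen and 6 h of time all differ between the anoxic and the standard cells. Light and 6 h of time both differ between the dark aerated and the standard cells, so a change in darkness is not separated from one with time.

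Superoxide dismutases turn superoxide into hydrogen peroxide. Catalases, ascorbate peroxidases, glutathione peroxidases and peroxiredoxins remove the peroxide. Peroxiredoxins draw their electrons mainly from thioredoxins, small proteins with a pair of reactive cysteines that are reduced by NADPH through thioredoxin reductases or, in chloroplasts, by photosynthetic ferredoxin. Glutathione, a cysteine-containing tripeptide made in 2 steps and kept reduced by glutathione reductase, serves glutaredoxins and glutathione S-transferases. In an illuminated alga the chloroplast is a main source of both the oxidants and the reducing power.

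Most of the changes of these genes were falls. In the wild type, dark aerated cells had 1 gene higher and 11 lower than standard cells of the 45 tested, against 4.28% higher and 6.75% lower over all measured loci. With the groups rescaled to a common median ratio 7 were lower in place of 11, the calls of GRX6, NTR4, GPX3 and GST1/GSTS1 being lost. Anoxic cells had 2 higher and 13 lower than dark aerated cells, against 6.88% and 7.96%. Anoxic against standard cells had 3 higher and 24 lower, against 11.5% and 15.9%. The genes' median log2 change in these comparisons was -0.45, -0.33 and -0.92, while that of all measured loci was -0.05, -0.01 and -0.06.

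In amiCYG12 falls also outnumbered rises. Dark aerated against standard cells had 0 genes higher and 9 lower, with 4.13% and 9.78% over all loci. Anoxic against dark aerated cells had 1 higher and 14 lower, with 12.9% and 12.9% over all loci. Anoxic against standard cells had 1 higher and 26 lower, with 9.27% and 15.7% over all loci. The medians were -0.41, -0.59 and -0.97, beside -0.07, -0.02 and -0.08 over all loci.

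**Figure D1:**
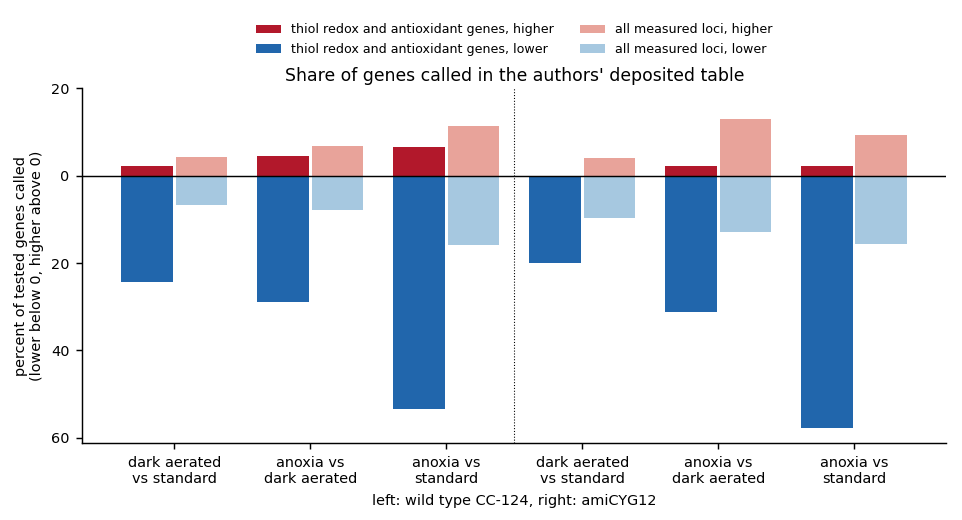
Percent of tested genes that the authors' deposited table calls higher (red, above 0) or lower (blue, below 0) in 6 comparisons, wild type left and amiCYG12 right; dark bars are the 45 thiol redox and antioxidant genes, pale bars all measured loci. The longest dark blue bars are anoxia against standard, 24 of 45 genes in the wild type and 26 of 45 in amiCYG12, beside 15.9% and 15.7% of all loci.

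The level of expression moved with these shares. The 45 genes had a median of 20.2 FPKM over the 6 groups, and all measured loci had 3.31 FPKM. A stricter limit was set after seeing the data, a mean of 10 FPKM or more, which 32 of these genes met. From standard to anoxia 19 of the 32 fell in the wild type and 21 in amiCYG12, against 30.3% and 30.7% of all loci above that limit. From standard to dark aerated cells 8 fell in each strain, against 14.6% and 13.9%, and from dark aerated to anoxic cells 10 fell in each strain, against 12.9% and 20.4%. None of the 32 was called higher in the 6 comparisons within a strain, so every gene of the set that rose had a mean under 10 FPKM. Of all loci above the limit 2.99%, 6.24% and 8.11% were higher in these wild-type comparisons (dark aerated against standard, anoxia against dark aerated, anoxia against standard), and 1.69%, 11.7% and 6.78% in amiCYG12. The same rescaling would raise the log2 values of anoxia against standard by 0.22 in the wild type and 0.18 in amiCYG12. It would end the wild-type calls of GRX1, GRX5, GSR2 and GST3, leaving 20 genes lower, and add a call of NTR1 as higher. In amiCYG12 it would end the calls of GST3, GST4, GRX6, MSD2 and PRX3, leaving 21. From dark aerated to anoxic wild-type cells it would end the calls of MSD1, GST4, TRX2/TRXL1 and GST1/GSTS1, and in dark aerated against standard amiCYG12 cells those of GRX6, PRX6 and FSD1.

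**Figure D2:**
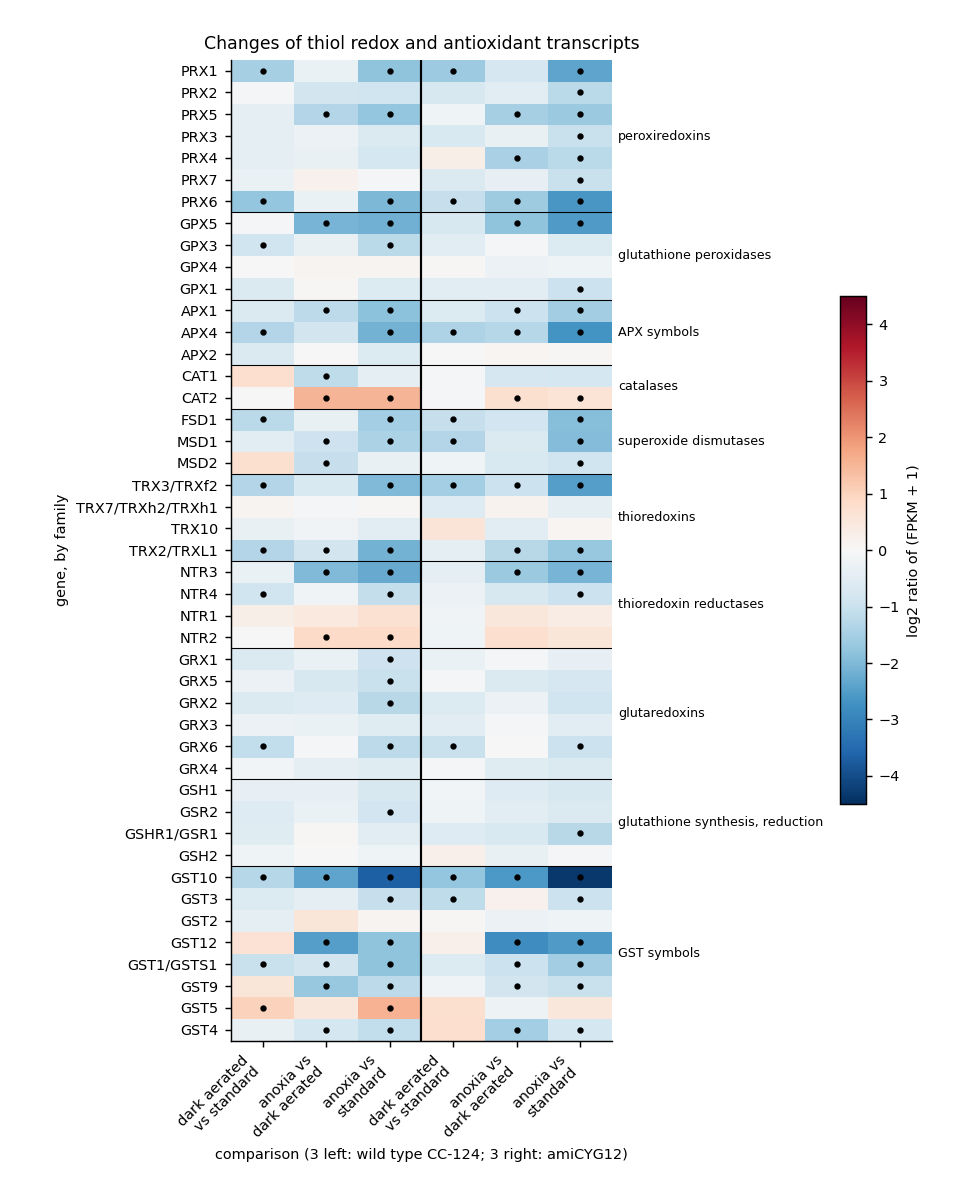
Log2 ratio of (FPKM + 1) of the 45 genes (rows, by family, highest mean first) in 6 comparisons (columns, wild type left of the black line, amiCYG12 right of it); blue is lower, red is higher, and a dot marks a call of the authors' deposited table. The deepest blue is GST10 at -3.66 in the wild type and -4.33 in amiCYG12, and the red cells with a dot belong to CAT2, NTR2 and GST5.

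The transcript pool of the set was dominated by a pair of 2-Cys peroxiredoxins, PRX1 and PRX2. FPKM is scaled to transcript length, so levels of different genes can be set side by side. PRX1 and PRX2 together held between 51.5% and 64.1% of the summed FPKM of the set, and they were the 2 genes with at least 100 FPKM in every group. Next by mean level came the superoxide dismutases FSD1 (247 FPKM) and MSD1 (122 FPKM), the glutaredoxin GRX1 (97.8 FPKM) and the catalase CAT1 (85.2 FPKM). At the other end 15 of the 45 genes had a mean under 10 FPKM. The summed level was 4570, 2810 and 1841 FPKM in wild-type cells and 4691, 2290 and 1446 FPKM in amiCYG12, so it was lowest in the anoxic cells of both strains.

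Among the superoxide dismutases the iron enzyme gene was the most abundant. FSD1 (Cre10.g436050, chromosome 10, 2474544 to 2475753; all positions are on genome version 5.5) had 480, 207 and 165 FPKM in wild-type cells and 361, 174 and 95.5 FPKM in amiCYG12. It fell in darkness with air in both strains, by log2 values of -1.21 and -1.05, the second lost with rescaling, and from standard to anoxia by -1.54 and -1.91. From dark aerated to anoxic cells its values of -0.33 and -0.86 were not called.

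MSD1, a manganese superoxide dismutase (Cre02.g096150, chromosome 2, 3892614 to 3894846), had 198, 140 and 72.8 FPKM in wild-type cells. In amiCYG12 it had 196, 77.9 and 49.8 FPKM. From standard to anoxia it fell in both strains, with -1.43 and -1.96. In the wild type the step from dark aerated to anoxia was called, with -0.93, a call lost with rescaling and with p-values adjusted within the comparison, and in amiCYG12 the step from standard to dark aerated, with -1.32. MSD2, the other manganese enzyme gene above the filter, had 22.04, 36.7 and 17.2 FPKM in wild-type cells and 26.3, 22.8 and 13.8 FPKM in amiCYG12. Its wild-type level was highest in the dark aerated cells, a rise that was not called, and fell from there to anoxia by -1.05. In amiCYG12 MSD2 fell from standard to anoxia by -0.88, a call lost with rescaling.

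From dark aerated to anoxic wild-type cells the catalase genes were called in opposite directions. CAT1, described as a mono-functional catalase (Cre09.g417150, chromosome 9, 7906771 to 7911464), had 88.1, 149 and 66.8 FPKM in wild-type cells and 81.4, 79.2 and 46.6 FPKM in amiCYG12. The single call within a strain was its fall from dark aerated to anoxic wild-type cells, by -1.15 (q = 0.00996 in the authors' deposited table). CAT2, described as a catalase/peroxidase (Cre01.g045700, chromosome 1, 6425113 to 6432474), was a low gene with 1.22, 1.23 and 5.42 FPKM in wild-type cells and 0.545, 0.450 and 1.36 FPKM in amiCYG12. By the deposited calls it was the only 1 of the 45 that rose under anoxia in both strains. Against the standard cells it rose by 1.53 and 0.61, and against the dark aerated cells by 1.52 and 0.71. With the groups rescaled, NTR2 would also be called higher in both strains from dark aerated to anoxic cells. Darkness with air left CAT2 at 0.00 and -0.09, not called.

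Of the ascorbate peroxidase symbols, APX1 and APX4 fell, and APX2 was not called in any comparison within a strain. APX1 (Cre02.g087700, chromosome 2, 1899262 to 1903342) had 44.4, 27.8 and 11.7 FPKM in wild-type cells and 41.6, 26.9 and 13.3 FPKM in amiCYG12. It fell from standard to anoxia by -1.84 and -1.58 and from dark aerated to anoxia by -1.18 and -0.97, while the dark aerated step of -0.66 and -0.61 was not called. APX4 (Cre05.g233900, chromosome 5, 216149 to 219990), which the table leaves without a description, had 47.9, 18.8 and 10.2 FPKM in wild-type cells and 29.8, 10.9 and 3.83 FPKM in amiCYG12. It fell already in darkness with air, by -1.30 and -1.38, and reached -2.12 and -2.68 under anoxia against the standard cells. APX2 (Cre06.g285150, chromosome 6, 5540720 to 5544095) had 14.0, 8.55 and 8.72 FPKM in wild-type cells and stayed between 18.6 and 19.6 FPKM in amiCYG12.

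All 7 peroxiredoxins had negative log2 values from standard to anoxia in both strains. In amiCYG12 all 7 were called lower, with a median of -1.22, and in the wild type 3 of the 7 were, with a median of -0.91, where 15.7% and 15.9% of all loci were lower. With rescaling the amiCYG12 call of PRX3 is lost. No peroxiredoxin passed the test of strain differences in response given below. PRX1, the chloroplast 2-Cys peroxiredoxin (Cre06.g257601, chromosome 6, 1208195 to 1210042), had 1602, 565 and 461 FPKM in wild-type cells and 2114, 688 and 410 FPKM in amiCYG12. Most of its fall lay between standard and dark aerated cells, -1.50 and -1.62, and the further step to anoxia of -0.29 and -0.74 was not called. PRX2, the second 2-Cys gene (Cre02.g114600, chromosome 2, 6290309 to 6292284), behaved otherwise in the wild type, with 932, 883 and 496 FPKM. In amiCYG12 it had 891, 542 and 384 FPKM, and it was called there alone, from standard to anoxia with -1.21. The wild-type value of -0.91 had q = 0.0524 in the authors' deposited table, just past the threshold. It would be called with p-values adjusted within that comparison.

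The type II peroxiredoxins also accept electrons from glutaredoxins in plants. PRX5 (Cre01.g014350, chromosome 1, 2511841 to 2514278) had 63.8, 46.5 and 18.2 FPKM in wild-type cells and 48.4, 42.6 and 14.4 FPKM in amiCYG12. It fell at the step to anoxia, by -1.31 and -1.50 from the dark aerated cells, and its dark aerated values of -0.45 and -0.18 were not called. PRX4 had 28.1, 20.3 and 15.9 FPKM in wild-type cells and 28.0, 33.4 and 11.5 FPKM in amiCYG12, where alone it fell from dark aerated to anoxic cells, by -1.47. PRX3 had 40.4, 30.3 and 25.4 FPKM in wild-type cells and 39.2, 24.1 and 19.0 FPKM in amiCYG12. It was called at -1.01 for anoxia against standard in amiCYG12 only, a call lost with rescaling.

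PRX6, described as a thioredoxin-dependent peroxidase (Cre10.g422300, chromosome 10, 676380 to 678971), showed the steepest peroxiredoxin fall. It had 25.3, 6.89 and 5.48 FPKM in wild-type cells, so the low level was reached in the dark aerated cells. In amiCYG12 it had 12.3, 5.53 and 1.17 FPKM and fell at both steps, by -1.03, a call lost with rescaling, and then by -1.59. From standard to anoxia its log2 values were -2.02 and -2.62, both at the smallest q of the authors' deposited table, 0.000623. PRX7 had 19.3, 15.7 and 17.9 FPKM in wild-type cells, where nothing was called. In amiCYG12 it had 20.2, 12.6 and 9.51 FPKM and fell by -1.01 from standard to anoxia.

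Of the glutathione peroxidases 1 was abundant and the other 3 stayed below 6 FPKM. GPX5 (Cre10.g458450, chromosome 10, 5436288 to 5438246), a gene known in this alga for its induction by singlet oxygen, had 75.1, 72.4 and 16.1 FPKM in wild-type cells and 87.5, 52.2 and 14.1 FPKM in amiCYG12. In the wild type darkness with air gave -0.05, not called, and anoxia against dark aerated cells a fall of -2.10. In amiCYG12 the same step gave -1.81. GPX3 had 5.65, 2.60 and 1.89 FPKM in wild-type cells and fell in darkness by -0.89 and under anoxia against standard by -1.20. In amiCYG12, with 4.73, 3.01 and 2.76 FPKM, GPX3 was not called. GPX1, described as a selenoprotein, ranged from 1.30 to 3.51 FPKM and fell in amiCYG12 from standard to anoxia by -0.97, and GPX4 ranged from 2.21 to 3.68 FPKM with no call.

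Of the 4 thioredoxins with a TRX symbol, 2 fell from standard to anoxia in both strains and 2 were not called. Over all loci 15.9% fell in that comparison in the wild type and 15.7% in amiCYG12. TRX3/TRXf2, described as chloroplastic thioredoxin f2 (Cre05.g243050, chromosome 5, 1655200 to 1659173), belongs to the type that in plants passes electrons from photosynthesis to enzymes of carbon fixation. It had 92.0, 36.7 and 22.3 FPKM in wild-type cells and 46.5, 15.5 and 7.47 FPKM in amiCYG12, so each amiCYG12 value lay below the wild-type value of the same incubation. It fell in darkness with air by -1.30 and -1.52 and from standard to anoxia by -2.0 and -2.49. TRX2/TRXL1, a thioredoxin-like protein gene (Cre03.g157800, chromosome 3, 2255585 to 2258889), had 12.0, 4.28 and 1.97 FPKM in wild-type cells and 7.34, 5.13 and 1.57 FPKM in amiCYG12. It fell at each wild-type step, by -1.30 and -0.83, the second call being lost with rescaling, and from standard to anoxia by -2.14 and -1.70.

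TRX7/TRXh2/TRXh1, a cytosolic thioredoxin h, had 24.0, 26.5 and 24.9 FPKM in wild-type cells and 21.7, 14.1 and 15.7 FPKM in amiCYG12, and nothing was called. TRX10, thioredoxin-like by description, ranged from 8.95 to 14.9 FPKM, also with no call. TRX10 overlaps 1 other locus, and whether the counting used the strand is not given, so its reads may be shared.

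From standard to anoxia the same 2 of 4 thioredoxin reductases fell in both strains, beside 15.9% of all loci in the wild type and 15.7% in amiCYG12. In the wild type 1 of the 4 rose, beside 11.5% of all loci. NTR3 (Cre07.g355600, chromosome 7, 6110235 to 6114623) had 19.3, 15.6 and 3.21 FPKM in wild-type cells and 28.1, 20.9 and 5.88 FPKM in amiCYG12. Its fall lay at the step to anoxia, with -1.98 and -1.67 against the dark aerated cells, and its values in darkness with air, -0.29 and -0.41, were not called. NTR4 had 20.5, 10.5 and 9.15 FPKM in wild-type cells, with a fall in darkness of -0.91, and 13.5, 11.1 and 6.39 FPKM in amiCYG12. It fell from standard to anoxia in both strains, by -1.08 and -0.97.

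NTR2 (Cre02.g098850, chromosome 2, 4246407 to 4252056) went up instead, from 8.08 and 8.07 FPKM to 15.4 FPKM in the anoxic wild type. Its log2 rise of 0.85 was the same against both other wild-type groups, with q-values of 0.0377 and 0.0392 in the authors' deposited table. The call against the dark aerated cells is lost when p-values are adjusted within that comparison. In amiCYG12 it had 4.80, 4.04 and 7.55 FPKM, and the values of 0.56 and 0.76 were not called. The value against the dark aerated amiCYG12 cells had q = 0.0516 in the authors' deposited table. It would be called with rescaling or with p-values adjusted within that comparison. NTR1, described as a selenoprotein, had its highest level under anoxia in both strains, 13.2 FPKM after 7.73 and 9.43, and 10.1 FPKM after 7.69 and 6.69. None of the NTR1 values was called, though with rescaling the wild-type value of anoxia against standard would be called higher.

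From standard to anoxia 4 of 6 glutaredoxins, which use glutathione to reduce disulfides, were lower in the wild type, with a family median of -0.96, and 1 of 6 in amiCYG12, with a median of -0.70, again beside 15.9% and 15.7% of all loci. GRX1, of the CPYC type (Cre12.g513750, chromosome 12, 3588205 to 3589812), was the most abundant, with 170, 109 and 89.2 FPKM in wild-type cells and 84.9, 68.2 and 65.2 FPKM in amiCYG12. Its wild-type fall from standard to anoxia was -0.92, and the amiCYG12 value of -0.38, from a lower start, was not called. GRX2, the other CPYC type, had -1.24 in the wild type, and GRX5 and GRX6, of the CGFS type, which is known for work with iron-sulfur clusters, had -0.99 and -1.17. GRX6 had 42.1, 19.2 and 18.1 FPKM in wild-type cells and 26.3, 12.8 and 12.9 FPKM in amiCYG12. It fell from standard to dark aerated cells in both strains, by -1.10 and -0.98, both calls being lost with rescaling. GRX3 and GRX4 were not called. From standard to anoxia in amiCYG12, GRX2 had q = 0.0538 and GRX5 q = 0.106 in the authors' deposited table, past the threshold. With rescaling the wild-type calls of GRX1 and GRX5 and the amiCYG12 call of GRX6 in this comparison are lost. No glutaredoxin passed the test of strain differences in response given below.

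Neither gene of glutathione synthesis was called. GSH1, which the table describes as a glutathione synthetase like GSH2, had 56.5, 43.9 and 33.6 FPKM in wild-type cells and 37.8, 34.7 and 22.6 FPKM in amiCYG12. GSH2 stayed between 6.79 and 10.3 FPKM. The GSH1 values from standard to anoxia were -0.73 and -0.71. Of the glutathione reductases, GSR2 had 22.5, 14.6 and 11.8 FPKM in wild-type cells and fell from standard to anoxia by -0.88, and in amiCYG12 it had 23.4, 20.5 and 14.6 FPKM with no call. GSHR1/GSR1 (Cre06.g262100, chromosome 6, 1759671 to 1765361) had 8.41, 5.46 and 5.72 FPKM in wild-type cells and 23.0, 15.1 and 9.09 FPKM in amiCYG12, where it fell from standard to anoxia by -1.25.

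The GST symbols held the deepest fall of the whole set and 1 of its 3 rises. GST10 (Cre12.g559800, chromosome 12, 7010766 to 7013714), without a description in the table, had 106, 42.9 and 7.46 FPKM in wild-type cells and 103, 29.6 and 4.13 FPKM in amiCYG12. It fell at every step, in darkness by -1.28 and -1.76 and from there to anoxia by -2.38 and -2.58, to totals of -3.66 and -4.33. The q-value of both totals was 0.000623 in the authors' deposited table. GST12, likewise undescribed (Cre15.g636800, chromosome 15, 499073 to 503304), fell at the second step only, from 19.1 to 2.65 FPKM in wild-type cells and from 18.8 to 1.86 FPKM in amiCYG12, by -2.46 and -2.79. Its standard levels were 11.7 and 15.8 FPKM.

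GST9 had 4.89, 7.52 and 1.62 FPKM in wild-type cells and fell to anoxia from darkness by -1.70 and, in amiCYG12, by -0.84. GST1/GSTS1 had 16.7, 7.86 and 4.01 FPKM in wild-type cells and 17.6, 11.1 and 5.23 FPKM in amiCYG12, with totals of -1.82 and -1.58. GST4 was low, at 2.83, 2.06 and 0.774 FPKM in wild-type cells and 2.43, 4.79 and 0.988 FPKM in amiCYG12, and it fell from darkness to anoxia by -0.79 and -1.54. GST3 had 43.8, 28.1 and 20.9 FPKM in wild-type cells and 36.7, 15.9 and 18.4 FPKM in amiCYG12. It fell from standard to anoxia by -1.03 and -0.96, both calls being lost with rescaling.

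GST5 (Cre02.g142200, chromosome 2, 7826161 to 7829802) went the other way in the wild type, from 0.795 to 2.68 and 4.25 FPKM. It rose by 1.04 in darkness with air and by 1.55 under anoxia against the standard cells. In amiCYG12 it had 1.49, 3.15 and 2.57 FPKM, and its values of 0.74 and 0.52 were not called. GST2 had 27.6, 20.0 and 30.0 FPKM in wild-type cells and 15.6, 16.4 and 13.4 FPKM in amiCYG12, with no called response. GST3, GST2 and GST1/GSTS1 lie on chromosome 16, at 3452635 to 3455058, 3594796 to 3597627 and 3658366 to 3660578, so GST2 is 139738 bases from GST3 and 60739 from GST1/GSTS1. How reads that match several members of such a family were counted is not given.

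**Figure D3:**
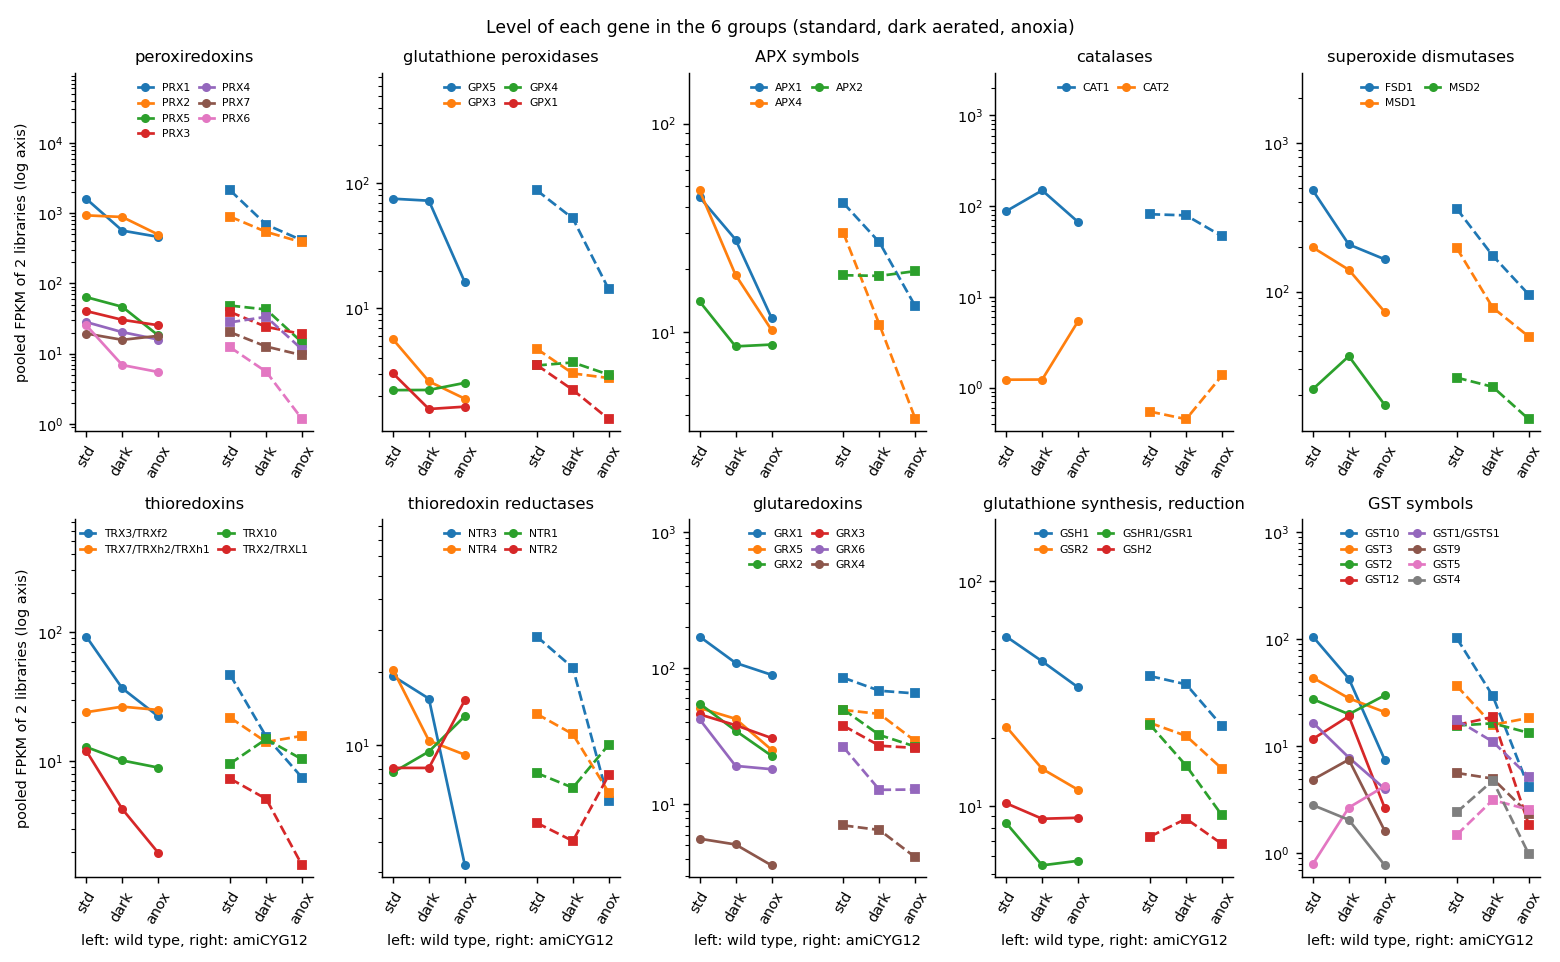
Pooled FPKM on a log axis of each gene above the filter in the standard, dark aerated and anoxic cells of the wild type (circles, solid) and amiCYG12 (squares, dashed), 1 panel per family; no error bars can be drawn because the table holds 1 value per group. PRX1 steps down between standard and dark aerated cells, GPX5 and NTR3 between dark aerated and anoxic cells, and CAT2 goes up from 1.23 to 5.42 FPKM in the anoxic wild type.

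The comparisons within a strain share libraries, since each group enters 2 of them, and whether a gene's change from light to darkness differed from its change from air to anoxia was not tested. In all, 10 of the 45 genes were not called in any of the 6 comparisons within a strain: APX2, GPX4, GRX3, GRX4, GSH1, GSH2, GST2, NTR1, TRX10 and TRX7/TRXh2/TRXh1. The matching share over all measured loci was not computed, so whether this count is few or many cannot be said.

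From standard to anoxia 19 genes were lower in both strains, 79.2% of the 24 in the wild type and 73.1% of the 26 in amiCYG12. Over all measured loci 66.8% and 67.8% of the falls were shared, and above the limit of 10 FPKM 75.4% and 74.4%, so the shares of the set were near this background. From dark aerated to anoxia 10 of the set were shared, 76.9% of 13 and 71.4% of 14, against 62.0% and 38.1% over all loci and 73.7% and 46.8% above the limit. From standard to dark aerated 7 were shared, 63.6% of 11 and 77.8% of 9, against 34.6% and 23.9% over all loci and 33.3% and 34.99% above the limit. The falls from standard to anoxia that were not shared were those of GPX1, GSHR1/GSR1, MSD2, PRX2, PRX3, PRX4 and PRX7 in amiCYG12 and of GPX3, GRX1, GRX2, GRX5 and GSR2 in the wild type.

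**Figure D4:**
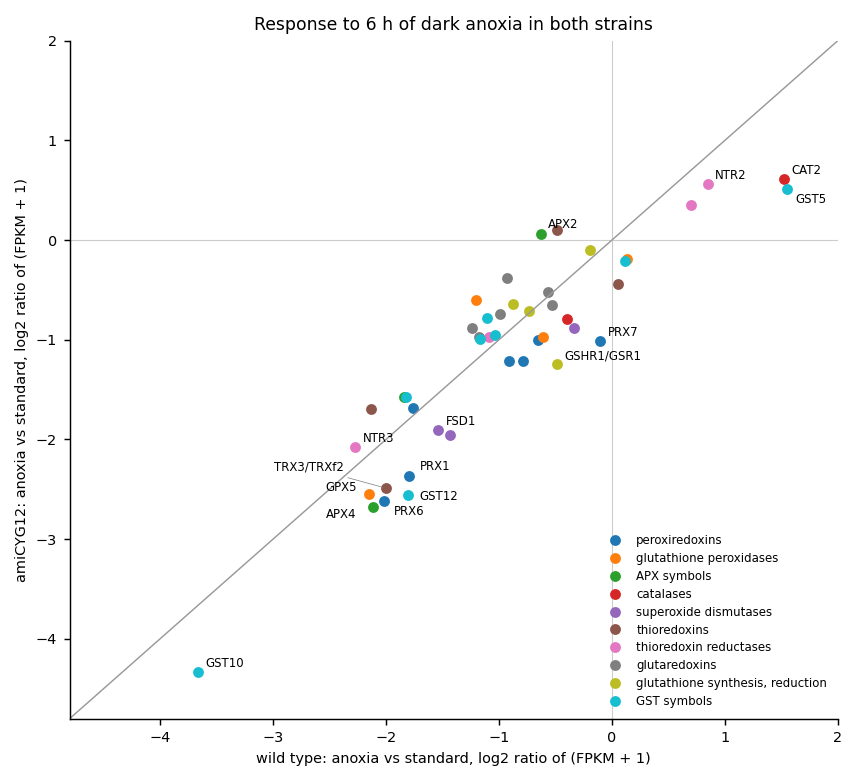
Log2 ratio of (FPKM + 1) from standard to anoxia in the wild type (horizontal) and in amiCYG12 (vertical) for the 45 genes, coloured by family; the diagonal marks equal values. GST10 lies at -3.66 and -4.33, and CAT2, GST5 and NTR2 lie on the right, with wild-type values of 1.53, 1.55 and 0.85 above their amiCYG12 values.

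The difference between the strains' responses was tested gene by gene, with standard errors recovered from the p-values of the authors' deposited table and Benjamini-Hochberg adjustment over all loci. None of the 45, 44 and 45 genes tested passed in the 3 responses, GSH2 having no recovered error from dark aerated to anoxia, and over all loci 227, 75 and 58 did, 2.15%, 0.703% and 0.543% of those tested. The smallest adjusted p of the set was 0.211 in the dark response, 0.141 from dark aerated to anoxia and 0.417 from standard to anoxia, and 1, 3 and 1 genes had an unadjusted p under 0.05. PRX6 had the smallest, from dark aerated to anoxia, where its log2 ratio in the authors' deposited table was -0.33 in the wild type and -2.24 in amiCYG12, a difference of -1.92 with a recovered standard error of 0.66. GST4 differed by 1.44 (standard error 0.58) in the dark response, and GST5 by -1.64 (0.67) from standard to anoxia. The median recovered standard error of the differences was 0.50, so a difference near 1 on the log2 scale would mostly not pass after adjustment.

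Between the strains at the same incubation few of the genes were called. In the standard cells 1 was higher and 3 were lower in amiCYG12, against 5.49% and 5.04% over all loci, which is near the background. In the dark aerated cells 3 were higher and 3 lower, against 8.20% and 10.8%. In the anoxic cells 1 was higher and 7 were lower, against 5.73% and 9.13%. Above the limit of 10 FPKM, 4 of 32 of these genes and 14.8% of all loci were lower in anoxic amiCYG12 cells.

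TRX3/TRXf2 was lower in amiCYG12 in all 3 incubations, by -0.97, -1.19 and -1.46, with q-values of 0.0237, 0.00428 and 0.000623 in the authors' deposited table. PRX6 was lower in the standard and the anoxic cells, by -0.99 and -1.58, and GRX1 in the standard cells by -1.0. The calls of TRX3/TRXf2, PRX6 and GRX1 in the standard cells are lost both with rescaling and with p-values adjusted within the comparison, which leaves 0 genes lower there. CAT2 was lower in amiCYG12 in both dark incubations, by -0.62 and -1.44, and so was NTR2, by -0.85 and -0.94, the first NTR2 call being lost with rescaling. APX4, GST2 and PRX7 were lower in anoxic amiCYG12 cells, by -1.22, -1.11 and -0.85, and the PRX7 call is lost under both alternatives. GST4 was higher in the dark aerated amiCYG12 cells by 0.92.

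The other genes called higher in amiCYG12 lie on chromosome 6. GSHR1/GSR1 was higher by 1.35 in the standard and 1.32 in the dark aerated cells, both at the smallest q of the authors' deposited table, and its anoxic value of 0.59 was not called. APX2 was higher by 1.04 in the dark aerated and 1.09 in the anoxic cells. Over all measured loci of chromosome 6 the median strain log2 was 0.62, 0.64 and 0.59 in the standard, dark aerated and anoxic cells, and elsewhere it was -0.08, -0.11 and -0.08. Of the loci of chromosome 6, 37.6%, 42.5% and 37.5% were called higher in amiCYG12, against 1.81%, 4.30% and 2.16% of the others. PRX1, the third gene of the set on this chromosome, had 0.40, 0.28 and -0.17, none of them called. The part of this chromosome-wide difference in the GSHR1/GSR1 and APX2 calls was not tested. The line amiCYG12 is a single transformant per the labels, so the microRNA and other properties of the line cannot be told apart.

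**Figure D5:**
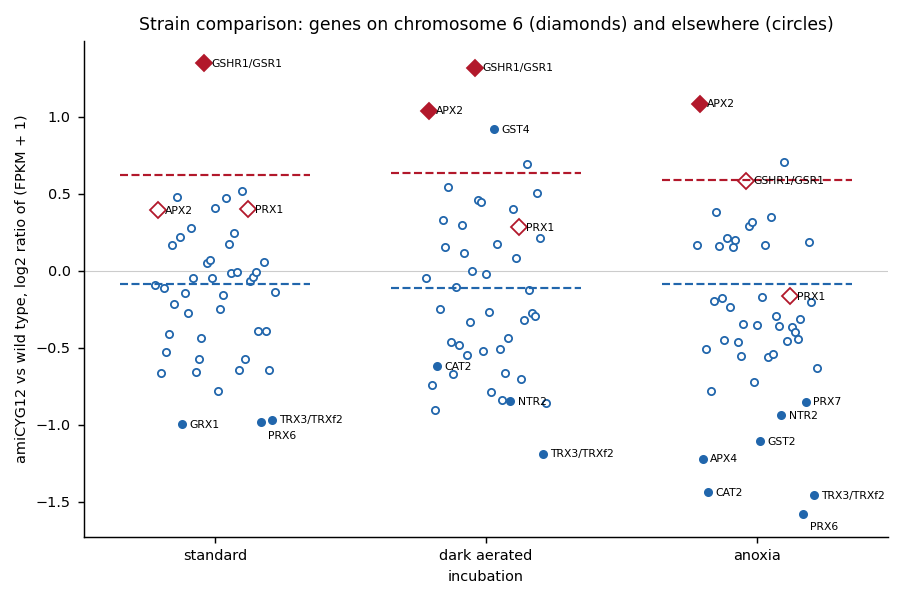
Log2 ratio of (FPKM + 1) of amiCYG12 against the wild type for the 45 genes in 3 incubations; diamonds are the 3 genes on chromosome 6, circles the other 42, filled symbols are called in the authors' deposited table, and the dashed lines are the medians of all measured loci of chromosome 6 (red) and of all other chromosomes (blue). The red lines lie at 0.62, 0.64 and 0.59, and the filled diamonds are GSHR1/GSR1 and APX2.

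Genes of neighbouring pathways, listed by symbol, were read beside the set. In thiol repair and disulfide exchange, which covers methionine sulfoxide reductases, nucleoredoxins and protein disulfide isomerases, 0 of 16 tested loci rose and 9 fell from standard to anoxia in the wild type, against 11.5% and 15.9% of all loci. The median was -1.08, and in amiCYG12 0 rose and 9 fell as well, with -0.94, against 9.27% and 15.7%. The disulfide isomerase gene RB60 went from 160 FPKM in the standard to 26.2 FPKM in the anoxic wild type, a fall of -2.57. In amiCYG12 RB60 and PDI2 fell by -3.15 and -3.37. The symbol rule also drew in FTR1, which the table describes as an iron permease and which is not a redox enzyme of this kind.

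In ascorbate synthesis and recycling 1 of 5 loci rose and 3 fell in that comparison of the wild type, with the same background. PNO2/MDAR1, a pyridine nucleotide-disulphide oxidoreductase by description, went from 17.4 to 2.66 FPKM, -2.33, and in amiCYG12 its value was -2.39. In amiCYG12 0 of the 5 loci rose and 2 fell, against 9.27% and 15.7% of all loci. This list includes VTC1, which the table describes as a vacuolar transport chaperone-like protein. In sulfate assimilation and cysteine synthesis, which supplies the cysteine of glutathione, 2 of 24 tested loci rose and 5 fell in the wild type, with a median of -0.35. The deepest fall was that of APK1/EZY13, an adenosine phosphosulfate kinase, with -1.66, and the selenium-binding protein gene SBD1 rose by 1.49. With 11.5% and 15.9% of all loci called higher and lower, this last list lay near the background in that wild-type comparison. In amiCYG12 1 of 25 tested loci rose and 6 fell from standard to anoxia, with a median of -0.34, against 9.27% and 15.7%. From dark aerated to anoxic cells 4 of 24 fell in the wild type, against 7.96%, and 6 of 25 in amiCYG12, against 12.9%.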

How the data were processed

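Stranded poly(A) libraries were made per the labels' protocols, and the submitters' processing notes name CASAVA 1.8.2, TopHat2 2.0.6 with Bowtie2 2.0.5, SAMtools 1.2 and Cufflinks 2.1.1. The authors deposited 1 table on genome version 5.5 (per the file headers) with 1 pooled FPKM value per group for 19505 transcripts. For 9 comparisons it also holds the authors' log2 fold changes, p-values, q-values and calls from Cuffdiff. The deposited log2 values equal the log2 of the FPKM ratios to within 5.36e-05. No deposited p-value lies under 5e-05 and no q-value under 0.000623. How q-values were adjusted across comparisons, whether counting used the strand, and how reads matching several genes were shared out are not given in the sources used here. Depth is unknown, and with no value per library no model of counts or of libraries could be fitted.

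Each locus was represented by its transcript with the highest mean. Loci with at least 1 FPKM in at least 1 group were kept, and those with a status other than OK were not counted as tested. Own log2 ratios used a pseudocount of 1. Symbols, descriptions and coordinates come from the table, with starts moved to count from 1. Strain differences of responses were set over standard errors recovered from the deposited p-values (normal quantile, two-sided, not above a p of 0.95) and adjusted by Benjamini-Hochberg at 0.05. Of 2 estimates per locus, from the 2 responses and from the 2 strain comparisons, the smaller was taken. Both are errors of the authors' test, not measured replicate errors. The procedure was run on simulated data with normal noise sized by the recovered errors, so that run cannot tell whether the recovered errors are right. Genes named with values are the members of each family and, of the neighbouring lists, the called loci with the largest change. The members and lists were chosen with earlier results of these data known. Alternatives were another pseudocount (0.1 and 5), a filter of 5 FPKM or none, summed transcripts, p-values adjusted within each comparison, a minimum log2 of 1, groups rescaled to a common median ratio and, added after seeing the data, a mean of at least 10 FPKM. Python 3.11.15, pandas 2.3.3, numpy 2.4.6, scipy 1.17.1 and matplotlib 3.10.9 were used.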

Additional observations from a re-analysis of the deposited data

How the results depend on the processing

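All 123 called log2 changes of the set kept their sign with pseudocounts of 0.1 and 5 and with summed transcripts, which could not have been otherwise. A pseudocount cannot turn the sign of a difference. Only GPX4, which has no call, has more than 1 transcript, so summing left every called gene unchanged. Rescaling the groups to a common median ratio, over 7519 loci, moved the log2 of anoxia against standard by 0.22 in the wild type and 0.18 in amiCYG12. After it 98 of the 123 calls passed again and 25 did not, all with the same sign. From standard to anoxia 20 genes were then lower in the wild type and 21 in amiCYG12, and NTR1 was added as higher in the wild type. From standard to dark aerated wild-type cells 7 were lower in place of 11. From dark aerated to anoxic amiCYG12 cells 2 were higher in place of 1, NTR2 being added. In the standard cells 0 were lower in amiCYG12 in place of 3. With p-values adjusted within each comparison the last count was also 0, the count of genes higher from dark aerated to anoxic cells was 1 in the wild type in place of 2 and 2 in amiCYG12 in place of 1. A minimum log2 of 1 gave 1 for that wild-type count. With at least 5 FPKM in a group 0 genes rose in dark aerated wild-type cells. With a mean of at least 10 FPKM 0 genes rose in any comparison within a strain, and 1 was lower in dark aerated and 4 in anoxic amiCYG12 cells than in the wild type. The cause of these moves was not tested. Strain differences of responses stayed at 0 genes with rescaling and with the larger of both standard errors.

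No paired analysis was possible because the table holds 1 pooled value per group, and for the same reason leaving out each replicate was not run. Counts in 1 direction of 1 to 3 genes rest on those genes alone. The lack of values per library limits every statement to the authors' own calls.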

Other observations

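The table holds 11 measured loci that it describes like the genes above but that carry no matching symbol; they were picked out after their values were seen. Thioredoxin f1 (Cre01.g066552, chromosome 1, 7950137 to 7953206), the type that in plants activates enzymes of carbon fixation in the light, had 124, 122 and 230 FPKM in wild-type cells and 74.5, 51.1 and 99.7 FPKM in amiCYG12. It rose from dark aerated to anoxic cells in both strains, by 0.91 and 0.95, with q-values of 0.0481 and 0.0356 in the authors' deposited table. It was lower in amiCYG12 in both dark incubations, by -1.24 and -1.20. The related TRX3/TRXf2 had -0.69 and -0.97 for the same step, the second of them called lower, and the difference between these genes was not tested.

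Cytosolic thioredoxin h1 (Cre09.g391900) had 255, 157 and 128 FPKM in wild-type cells and 287, 154 and 121 FPKM in amiCYG12, and it fell from standard to anoxia by -0.99 and -1.24. A locus described as a heme-containing L-ascorbate peroxidase (Cre09.g401886) had 32.2, 48.6 and 19.8 FPKM in wild-type cells and 27.5, 39.3 and 9.82 FPKM in amiCYG12. Its values from standard to dark aerated cells, 0.58 and 0.50, were not called. From dark aerated to anoxic cells it fell by -1.25 and -1.90. Mitochondrial thioredoxin o (Cre05.g248500) fell at the same step, by -0.86 and -1.09. Over the 11 loci 0 rose and 3 fell from standard to anoxia in the wild type, where 11.5% and 15.9% of all loci did, and 0 rose and 5 fell in amiCYG12, where 9.27% and 15.7% did.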
